A study of Mus musculus with 7 samples.

Results

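The 8 genes described here belong to arginine, nitric oxide and itaconate metabolism and were followed through single-cell RNA libraries of mouse heart: Arg1, Arg2, Nos2, Acod1, Slc7a2, Odc1, Ass1 and Asl. They were matched by symbol and make up 8 of the 32285 genes in the count matrices. The set was put together with measured values of these libraries in view, above all high Arg1 after infarction at 8 weeks and high Nos2 and Acod1 after infarction in the Mertk knockout. Those 2 differences are therefore given as values with no test.

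The study compared hearts of mice labelled C57BL6/J, called WT here, with hearts of mice labelled MerTK KO, called Mertk KO, after myocardial infarction (MI) or a sham operation. WT hearts were taken at age P1 (1 sham and 2 MI libraries) and at 8 weeks (1 sham and 1 MI library), and Mertk KO hearts at P1 (1 sham and 1 MI library), which gives 7 libraries in 6 groups. In every group the perfused tissue was digested with collagenase and DNase, red cells were lysed, Annexin V was used to take out dead cells, and leukocytes, bound by CD45, were enriched and mixed back with the CD45- flow-through at 2 to 1. The time between surgery and sampling, the number of hearts per library and the deleted part of Mertk are not given in the sources used here, and nothing says whether WT P1 MI replicates 1 and 2 are different animals, so that the p-values rest on a spread between 2 samples that may be technical only.

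Macrophages and their monocyte precursors can send arginine down competing routes. Arg1, the cytosolic arginase, and Arg2, its mitochondrial counterpart, split arginine into ornithine and urea, and Odc1 (ornithine decarboxylase) turns ornithine into putrescine, the first polyamine. Nos2, the inducible nitric oxide synthase, uses the same arginine to make nitric oxide and citrulline, and Ass1 and Asl (argininosuccinate synthase and lyase) rebuild arginine from that citrulline. Slc7a2 is a cationic amino acid transporter that brings arginine into the cell. Acod1 (also known as Irg1) sits in the mitochondrion and makes itaconate from cis-aconitate, drawing on the citric acid cycle. Arg1 is a classical marker of alternatively activated and wound macrophages, and Nos2 and Acod1 are induced by bacterial products and interferons.

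On GRCm38 with the GENCODE vM21 annotation the 8 genes lie apart from each other. Arg1 spans chr10:24915221-24927484 on the minus strand and Arg2 chr12:79130777-79156301 on the plus strand. Nos2 spans chr11:78920787-78960254 (plus) and Acod1 chr14:103046977-103056573 (plus). Slc7a2 spans chr8:40862396-40922308 (plus), Odc1 chr12:17544794-17551505 (plus), Ass1 chr2:31470207-31520672 (plus) and Asl chr5:130011258-130029247 (minus). The counts are per gene over all its transcripts, from 3′ tags.

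Between 1035 and 16379 barcodes per library were deposited, with 7707724 to 130847843 UMIs (unique molecular identifiers, 1 per captured transcript), and 764 to 13166 cells were kept, at median depths of 2142 to 11420 UMIs per cell. The shallowest of these medians is that of WT 8 week MI. Library pairs shared at most 47 barcodes. Mertk transcript was found at 50.9, 51.0, 27.8, 62.5, 29.6, 51.8 and 18.2 CPM (counts-per-million, the UMIs of a gene over all UMIs of the cells summed) in macrophage-like cells. The 5 WT libraries come first in such a series, namely P1 sham, P1 MI replicate 1, P1 MI replicate 2, 8 week sham and 8 week MI, and then those labelled Mertk KO, sham before MI. The libraries labelled Mertk KO thus held Mertk transcript, at 16.0 and 22.6 CPM also in neutrophil-like cells (0 to 3.95 in the WT libraries), and since 3′ tags can lie outside a deleted part this checks nothing about the label.

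Cell classes were rebuilt by clustering and named from marker genes. Macrophage-like cells numbered 234, 74, 616, 115, 2542, 146 and 189. Monocyte-like cells numbered 55, 30, 584, 495, 11, 354 and 1734, and neutrophil-like cells 43, 20, 695, 851, 6, 550 and 2946. Fibroblast-like cells numbered 333, 225, 2944, 1501, 165, 678 and 556. The macrophage-like class is not made of the same clusters in all libraries: 2418 of the 2542 cells of WT 8 week MI fell into cluster 3 (Spp1, Gpnmb and Ms4a7 among its leading genes), whereas 502 of 616 in WT P1 MI replicate 2 and 99 of 189 in Mertk KO P1 MI fell into cluster 14 (Mrc1, Fcrls and Pf4). The mononuclear pool joins the macrophage- and monocyte-like cells with cluster 17, which stayed unnamed (Prg4, Ltc4s and Alox15), and holds 296, 119, 1233, 1458, 2567, 528 and 1924 cells. WT 8 week MI had 11 monocyte-like and 6 neutrophil-like cells, so its values in those classes rest on few UMIs. Because the pool sums over cells, more cells with a transcript and more transcript per cell cannot be told apart in its levels.

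Transcripts of neutrophils were found in every other cell class of some libraries. S100a9, a neutrophil transcript, was detected in 12.2%, 4.92%, 50%, 13.7%, 3.13%, 9.49% and 69.6% of T cell-like cells. The summed level of 14 neutrophil markers in macrophage-like cells was 110, 49.6, 15890, 980, 1297, 2355 and 21150 CPM, against 121500 to 251700 in neutrophil-like cells. In macrophage-like cells of WT P1 sham, Ltf, Elane and Ly6g were at 0 UMIs, and no marker of the list was at 0 in WT P1 MI replicate 2, WT 8 week MI or Mertk KO P1 MI. The part of such RNA in the levels below was not tested. For each of Arg1, Nos2 and Acod1 the level in classes that should lack the transcript is given beside it.

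Arg1 was highest in WT 8 week MI, where its transcripts lay in macrophage-like cells. There 43.1% of 2542 macrophage-like cells held an Arg1 UMI, and the level was 1647 CPM (exact Poisson 95% interval 1615 to 1679). Over the 7 libraries the macrophage-like level was 9.33, 191, 63.3, 141, 1647, 387 and 145.5 CPM. WT 8 week MI stood above every other library, WT P1 sham below every other one, and the lone Mertk KO P1 sham library was above both WT P1 MI libraries. This order goes with the cluster make-up: within cluster 3 the level was 1217 CPM in 38 cells of WT P1 MI replicate 2, 438 and 1718 in 38 and 2418 cells of the 8 week libraries (sham, then MI), and 2185 and 139 in 26 and 38 cells of the knockout libraries (sham, then MI), so WT 8 week MI was not the highest there. After each cell was thinned to 1500 UMIs, so that depths match, 0.541%, 12.1%, 2.67%, 9.68%, 41.4%, 11.4% and 5.56% of macrophage-like cells were Arg1-positive.

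In monocyte-like cells the order of libraries differed. The Arg1 level there was 0, 476, 68.9, 19.9, 153, 239 and 686 CPM, the 153 of WT 8 week MI resting on 2 UMIs. A count of 0 in WT P1 sham allows up to 5.78 CPM. Mertk KO P1 MI was the highest (interval 673 to 700), and 38.0% of its 1734 monocyte-like cells were positive, or 27.0% after thinning. The neighbours in this order, Mertk KO P1 MI and WT P1 MI replicate 1, had intervals that did not overlap, but replicate 1 (406 to 554) rests on 30 cells and its partner replicate 2 was at 68.9, so the spread between the WT replicates is larger than the gap to the knockout.

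Arg1 was low in neutrophil- and fibroblast-like cells. The neutrophil-like level ran from 0 to 35.2 CPM, the latter in Mertk KO P1 MI with 1.28% of thinned cells positive. Fibroblast-like cells held 0, 0.714, 0.588, 1.71, 47.0, 1.34 and 6.62 CPM. The 47.0 of WT 8 week MI (interval 32.3 to 65.9, median depth 3563 UMIs) overlapped the intervals of its endothelial-like (18.1 to 107) and T cell-like cells (0.978 to 215, from 1 UMI at a median depth of 653). In this library 14.9% of 141 fibroblast-like cells of cluster 15 and 36.8% of 19 of cluster 24 held Arg1. Whether this is background was not tested. T cell-like cells as a class could not serve as a floor in the other libraries, since 22.9% of the 61 and 22.8% of the 92 in the WT P1 MI replicates held Arg1, at median depths of 6781 and 4568 UMIs. Most of these UMIs, 37 of 51 and 51 of 51, lay in cluster 28 (Trdc, Tcrg-C1 and Il17a, genes of γδ T cells), where 39.3% of 28, 47.7% of 44, 9.74% of 154, 21.6% of 37 and 27.0% of 74 cells were positive in the WT P1 MI replicates, WT 8 week sham and the knockout sham and MI libraries. In cluster 7 (Cd8b1, Trbc2 and Lef1), by contrast, 0 of 162, 3.57% of 28, 0 of 45, 1.82% of 1207, 4.17% of 24, 0 of 86 and 1.72% of 58 cells held Arg1.

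Outside the cells named macrophage- or monocyte-like, 2 unnamed clusters carried Arg1. Cluster 17, which held all macrophage markers in WT 8 week sham (22000 CPM in sum) and also the cavity macrophage genes Prg4 and Alox15, held 24013 of all 24990 Arg1 UMIs of WT 8 week sham, where 784 of its 848 cells (92.5%) were positive at 1975 CPM. In WT P1 MI replicate 1 the 15 cells of cluster 17 held 1080 of 1723 Arg1 UMIs, at 3165 CPM. Cluster 26 (Calca, Csf2, Gata3, Il1rl1 and Areg) was positive in 79.0%, 90.9%, 81.3% and 74.7% of its cells in the first 4 libraries and in 79.5% in Mertk KO P1 sham. WT 8 week MI and Mertk KO P1 MI, with 4 and 11 cells in this cluster, are left out of these shares. In WT P1 sham, 15 of all 22 Arg1-positive cells were in cluster 26. In WT 8 week sham, 64.5% of the 1215 positive cells were in cluster 17 and 15.6% in cluster 26. Over all kept cells Arg1 therefore read 10.3, 151, 13.4, 315, 1385, 68.4 and 252 CPM, with different cells behind the values of different libraries.

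**Figure D1:**
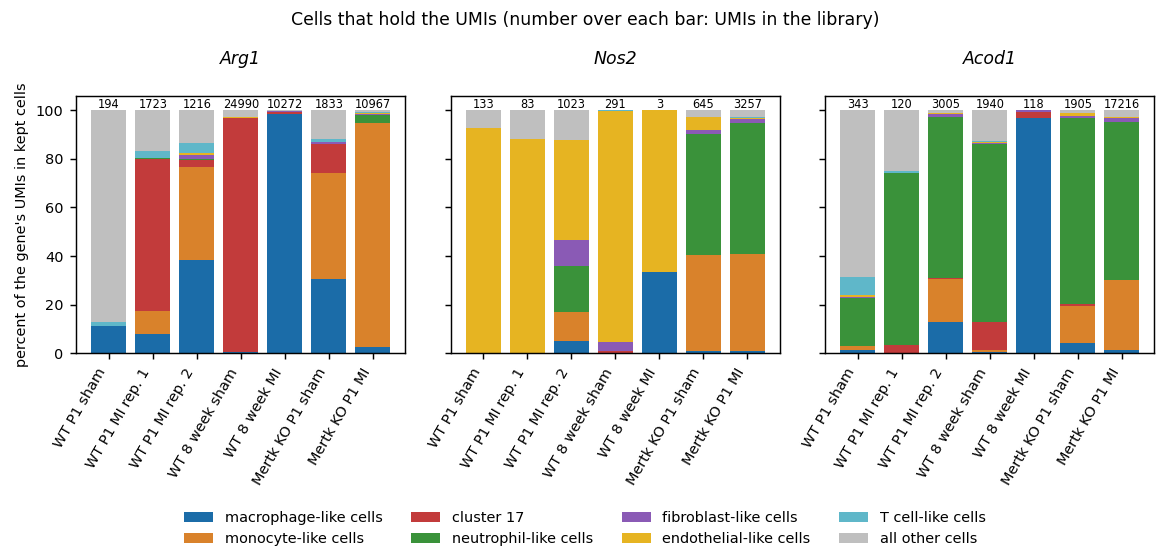
Share of each library's UMIs of the named gene (percent, vertical axis) that lay in each cell class or cluster (coloured segments), for the 7 libraries. Arg1 of WT 8 week MI lay in macrophage-like cells, Arg1 of WT 8 week sham in cluster 17, and Nos2 and Acod1 of Mertk KO P1 MI mostly in neutrophil- and monocyte-like cells.

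Slc7a2, the arginine transporter, was found in cluster 17 and in macrophage-like cluster 3 of several libraries and was low in monocyte-like cells. Its macrophage-like level was 5.09, 35.4, 3.80, 49.8, 37.0, 24.9 and 3.64 CPM. Its pool level, 3.96, 99.7, 3.29, 254.5, 37.2, 23.7 and 7.03, was highest in WT 8 week sham, the library in which cluster 17 made up 848 of 1458 pool cells. In cluster 17 the level was 322, 17.9, 331, 87.7 and 104.5 CPM from WT P1 MI replicate 1 to Mertk KO P1 sham, and in cluster 3 it was 56.5, 135, 39.4, 197 and 34.8 from WT P1 MI replicate 2 to Mertk KO P1 MI. Monocyte-like cells held at most 16.2 CPM of Slc7a2, in Mertk KO P1 sham, and fibroblast-like cells 4.05 to 34.2.

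Arg2, the mitochondrial arginase, was found mainly in neutrophil-like cells. Neutrophil-like cells held 308.5, 79.5, 261.5, 383, 266, 217.5 and 287 CPM, and 32.5%, 35.0%, 38.1%, 40.0%, 28.8% and 34.4% of thinned cells were positive in the 6 libraries with enough of them (all but WT 8 week MI). These shares lay close together across sham and MI, both ages and both genotypes. The macrophage-like level was 4.24, 5.67, 33.0, 11.6, 16.1, 16.6 and 35.4, and the monocyte-like level 42.4, 66.3, 85.8, 5.07, 0, 68.6 and 65.1 CPM. Fibroblast-like cells reached 6.75 in Mertk KO P1 MI and at most 0.588 elsewhere.

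In most WT libraries Nos2 was an endothelial transcript, and in the labelled Mertk KO libraries it was found in neutrophil- and monocyte-like cells. Endothelial-like cells held 92.5%, 87.9%, 41.2%, 94.8%, 66.7%, 5.43% and 0.768% of all Nos2 UMIs, of which there were 133, 83, 1023, 291, 3, 645 and 3257. WT P1 MI replicate 2 was thus the WT library with Nos2 outside the endothelium in numbers. The neutrophil-like level was 0, 0, 36.3, 0, 0, 117.0 and 167 CPM (193, 321 and 1745 UMIs where above 0). The 4 zeros allow up to 18.2, 11.4, 1.57 and 399 CPM, the last because WT 8 week MI had 6 such cells. Both knockout libraries, sham (interval 104.5 to 130.5) and MI (159 to 175), were above WT P1 MI replicate 2 and above the limits of the other WT libraries save WT 8 week MI. After thinning, 4.71%, 10.3% and 19.0% of neutrophil-like cells were positive in the 3 libraries.

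Within neutrophils Nos2 lay in 2 of the 3 clusters. Cluster 1 (Hcar2, G0s2, Cxcl2 and Asprv1) held 102, 188 and 193 CPM in WT P1 MI replicate 2 and the Mertk KO sham and MI libraries, with 15.3%, 29.5% and 28.5% of cells positive. Cluster 12, with the granule genes Ngp, Camp and Ltf of immature neutrophils, held 22.4, 121 and 110 CPM in the same libraries. Cluster 8, with Csf3r, Cxcr2 and Hdc of mature neutrophils, held Nos2 in 0.78% of 128 cells of WT P1 MI replicate 2 and in 0 of 848, 0 of 216 and 0 of 22 cells of WT 8 week sham and the Mertk KO sham and MI libraries. The Mertk KO P1 MI library had 2373 of its 2946 neutrophil-like cells in cluster 1, and WT 8 week sham 848 of 851 in cluster 8, so the class levels also follow the cluster make-up.

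Monocyte-like cells held Nos2 at 0, 0, 17.8, 0.338, 0, 75.8 and 89.2 CPM, with 11.0% and 19.8% of cells positive in Mertk KO P1 sham and MI (5.80% and 7.41% after thinning). Both knockout libraries, sham included, were above the WT libraries other than WT 8 week MI, whose 11 cells set no useful limit. The Mertk KO P1 MI level was 59.0 when doublets were not removed, and with a minimum of 1000 UMIs per cell the main monocyte-like cluster of this library was held to be mixed, monocyte markers leading and neutrophil markers next, and left the class. None of the non-classical monocyte-like cells (cluster 20) held Nos2 in any library.

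In macrophage-like cells Nos2 was scarce in all libraries. It read 0, 0, 7.20, 0, 0.163, 4.83 and 13.5 CPM, and in WT 8 week MI it came to 1 UMI in 2542 cells. T cell-like cells held 3 Nos2 UMIs in Mertk KO P1 MI (2.03% of cells, 0.714% after thinning, median depth 3898 UMIs) and 0 in the other P1 libraries. Endothelial-like cells held 25.9, 31.8, 18.0, 45.4, 16.4, 10.5 and 14.1 CPM. The knockout libraries read lowest there, but the 16.4 of WT 8 week MI rests on 2 UMIs in 59 cells. Cluster 21 held 0 Nos2 UMIs in WT P1 MI replicate 2 and in Mertk KO P1 sham. It made up 269 of 2577 and 58 of 246 of their endothelial-like cells, and 68 of 187 in Mertk KO P1 MI. In fibroblast-like cells of WT P1 MI replicate 2, 6 of 2944 cells held all 108 Nos2 UMIs, 106 of them in cluster 15.

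Acod1 was found in neutrophil-like cells of all libraries but WT 8 week MI, and its monocyte-like level was highest in the labelled Mertk KO MI library. Neutrophil-like cells held 405, 322, 375, 743, 0, 531 and 1073 CPM (1053 to 1093 for the last). After thinning 30.0%, 40.0%, 40.6%, 40.4%, 43.3% and 69.2% of neutrophil-like cells were positive, again without WT 8 week MI, so Mertk KO P1 MI was above all others. The clusters differed in this. Both main clusters of Mertk KO P1 MI held more Acod1 than in the other libraries named here. Cluster 1 held 945, 899 and 1261 and cluster 12 held 201, 243 and 651 CPM in WT P1 MI replicate 2 and then in the 2 knockout libraries. In cluster 8, where Acod1 read 629.5, 1936, 648 and 752 CPM in the first 4 libraries and 1369 and 448.5 in the knockout sham and MI libraries, the last of these, from 22 cells, was the lowest.

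Mast-like cells (cluster 33) held Acod1 as well, at 1075 CPM in 29 cells of WT P1 sham (67.9% of that library's Acod1 UMIs), 319 in 11 cells of WT P1 MI replicate 1, 0 in 27 cells of replicate 2 and 1972 in 18 cells of Mertk KO P1 MI.

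The monocyte-like level of Acod1 was 11.6, 0, 77.8, 4.06, 0, 86.6 and 336 CPM, and 1.92%, 0%, 7.40%, 0.416%, 6.09% and 27.8% of thinned cells were positive in the libraries other than WT 8 week MI. Mertk KO P1 MI stood above all others (interval 326 to 345), whereas Mertk KO P1 sham and WT P1 MI replicate 2 were close to each other. Macrophage-like cells held 2.12, 0, 53.0, 15.1, 18.6, 58.0 and 141 CPM. In Mertk KO P1 MI the classes that should lack Acod1 held 22.2 (T cell-like, 6.76% of cells), 33.2 (fibroblast-like, 13.3%) and 40.6 CPM (endothelial-like, 12.8%), below the levels of monocyte- and macrophage-like cells. Per 1000 UMIs of S100a9 this library had 46.8 Acod1 UMIs in monocyte-like cells, 17.3 in macrophage-like, 14.6 in neutrophil-like, 24.5 in fibroblast-like and 40.7 in T cell-like cells, so the ratio did not set monocyte-like cells apart from T cell-like cells. The summed neutrophil markers, like Acod1, were higher in monocyte- and macrophage-like cells than in the classes that should lack Acod1. These markers read 20820 CPM in monocyte-like and 21150 in macrophage-like cells, against 1565, 6097 and 4634 in T cell-, fibroblast- and endothelial-like cells. Within each of these 2 sets of classes the order was not that of Acod1. The part of neutrophil RNA in the Acod1 levels was not tested.

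**Figure D2:**
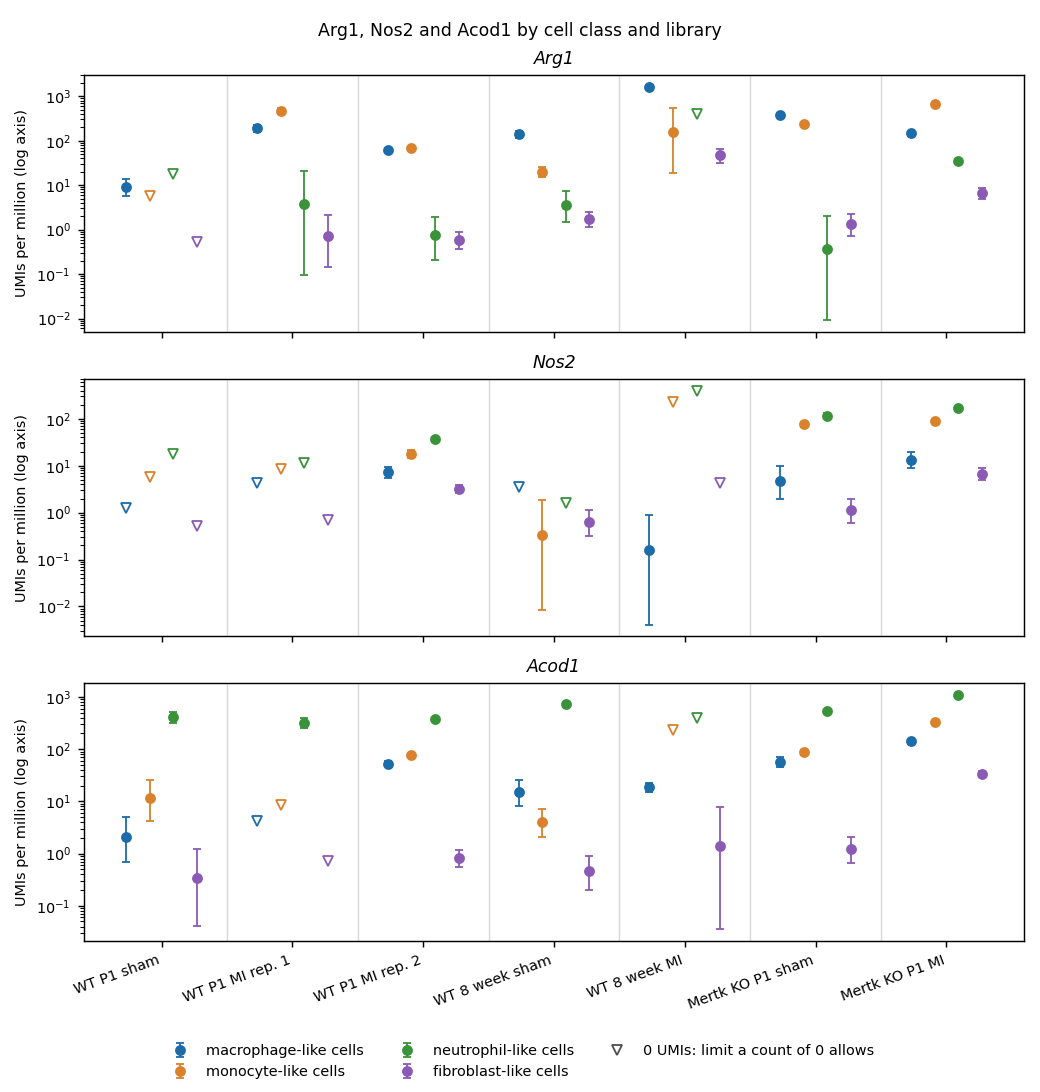
Levels of Arg1, Nos2 and Acod1 in CPM (log axis) in each of the 7 libraries, 1 panel per gene and 1 colour per cell class, with exact Poisson 95% intervals as bars and open triangles at the limit that 0 UMIs allow. Arg1 reached 1647 in macrophage-like cells of WT 8 week MI, and Nos2 and Acod1 reached 167 and 1073 in neutrophil-like cells of Mertk KO P1 MI.

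The sequence just upstream of Acod1 is shown because it is the member of the Nos2 and Acod1 pair with a promoter entry in the RefSeq table used (3 of the 8 genes matched, Acod1, Odc1 and Ass1). The 215 bases before the gene, chr14:103046762-103046976 on the plus strand of GRCm38.p6, are given 5′ to 3′, with the match to a loose NF-kB-like pattern in capitals:
Acod1: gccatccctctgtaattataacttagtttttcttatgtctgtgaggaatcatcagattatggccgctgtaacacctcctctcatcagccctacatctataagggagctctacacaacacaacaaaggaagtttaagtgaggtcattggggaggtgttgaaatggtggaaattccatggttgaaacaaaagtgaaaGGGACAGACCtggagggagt
The pattern, GGG and then CC after any 5 bases, was searched on both strands. It is looser than the NF-kB consensus, and other forms of that site were not searched. It had 1 match, starting 20 bases from the end of the window, and is common: 40.4% of 32851 windows of this kind hold it. Searches for TATAAA, for TGANTCA (AP-1), for GAAA and again GAAA after any 2 bases (interferon-stimulated response element) and for ACGTG (hypoxia response element) had 0 matches, against 9.75%, 5.97%, 2.58% and 14.1% of windows. A match describes letters and says nothing of binding.

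Odc1, the first enzyme of polyamine synthesis, was found in all 4 classes. Fibroblast-like cells held 149.7, 125, 109.7, 62.1, 119.5, 135 and 180.0 CPM, with 6.05% of thinned cells positive in WT 8 week sham against 13.9% to 19.4% in the other libraries. Macrophage-like cells held 89.5, 92.2, 88.8, 42.8, 55.5, 122 and 98.8, so the 2 libraries of 8 weeks were the lowest. Monocyte-like cells held 18.3 to 86.5 and neutrophil-like cells 0 to 68.1 CPM. The T cell-like level was 73.3, 275.5, 150.7, 350, 116, 425 and 568, highest in the 2 knockout libraries, but its clusters differed: cluster 7 read 25.7 to 70.4 in the WT and 136 and 116 in the knockout libraries, cluster 25 read 819 in WT 8 week sham against 683 and 173.5 in the knockout libraries, and cluster 28 read 671 in WT P1 MI replicate 1 against 668 and 887.

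Ass1, which starts the rebuilding of arginine from citrulline, was higher in macrophage-like cells of the 8 week libraries, at 5.51, 1.42, 11.0, 53.3, 52.1, 14.5 and 12.5 CPM. Sham and MI were close to each other at 8 weeks, and all 5 P1 libraries lay below both. The clusters did not keep this order: in cluster 3 Ass1 read 102 CPM in WT P1 MI replicate 2, 155.5 and 52.2 in the 8 week libraries (sham, then MI) and 85.3 in the knockout sham library, and in cluster 14 it read 13.1 in WT 8 week sham against up to 11.4 in the P1 libraries. Monocyte-like cells held 13.5, 2.88, 26.2, 27.7, 0, 32.7 and 29.6, where age did not separate the libraries. Asl, the second enzyme of that step, ranged from 22.0 to 59.1 CPM in macrophage-like cells, highest in WT 8 week MI, and from 8.47 to 27.0 in fibroblast-like cells.

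**Figure D3:**
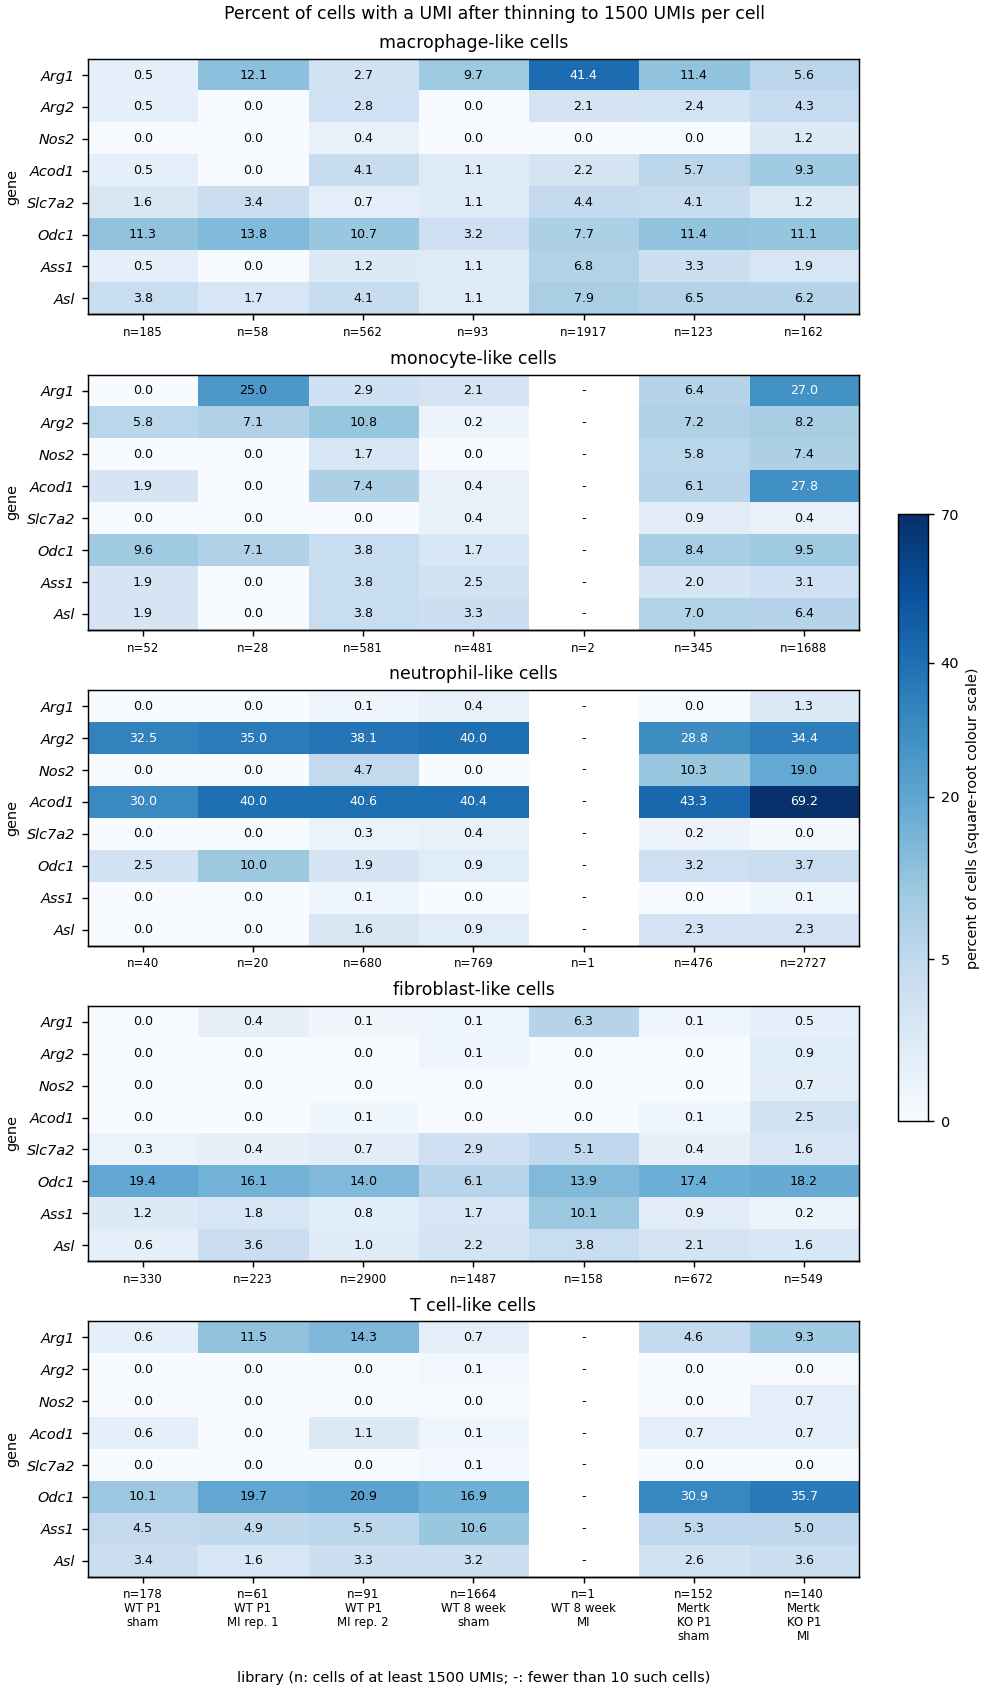
Percent of cells with at least 1 UMI after thinning each cell to 1500 UMIs, for the 8 genes (rows) and 7 libraries (columns) in 5 cell classes, with the number of cells under each column. Arg1 was detected in 41.4% of macrophage-like cells of WT 8 week MI, and Acod1 in 69.2% of neutrophil-like and 27.8% of monocyte-like cells of Mertk KO P1 MI.

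Arg1 cells of the adult infarct and Nos2 or Acod1 cells of the knockout infarct fell mostly into different cell classes. The class make-up of these libraries differed as well. Macrophage-like cells were 2542 of all 3049 kept cells of the adult infarct. Among 6210 kept cells the knockout infarct had 2946 neutrophil-like, 1734 monocyte-like and 189 macrophage-like ones. The part of this make-up in the contrast was not tested. In WT 8 week MI, 1164 cells held Arg1 and 1096 of them (94.2%) were macrophage-like. In Mertk KO P1 MI, 3789 cells, 61.0% of all kept, held Nos2 or Acod1, of which 2496 (65.9%) were neutrophil-like, 987 (26.0%) monocyte-like and 52 macrophage-like. The same library had 807 Arg1 cells, and 658 of them (81.5%) were monocyte-like, all in cluster 2 (Plac8, Fcgr1 and Ms4a6c).

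The mononuclear pool was split by which of the 3 transcripts a cell held. In WT 8 week MI, 1055 cells (41.1%) held Arg1 alone, 40 (1.56%) Nos2 or Acod1 alone, and 53 (2.07%) both. In Mertk KO P1 MI, 169 cells (8.78%) held Arg1 alone, 525 (27.3%) Nos2 or Acod1 alone, and 515 (26.8%) both. In these unthinned counts Arg1 cells of the knockout infarct mostly held Nos2 or Acod1 as well, whereas those of the adult infarct mostly did not. Median depth differed, at 2668 UMIs for Arg1-alone cells of WT 8 week MI and 9923 for double-positive cells of Mertk KO P1 MI, and a shallower cell shows a second transcript less often. Neutrophil markers differed as well. In Mertk KO P1 MI, cells with Nos2 or Acod1 alone held 30320 CPM of them and cells with both 22160. Cells with Arg1 alone held 10940 and those with none 12310. In WT 8 week MI the same sets held 12670, 7901, 936 and 1062. The part of neutrophil RNA in this split was not tested.

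In the other libraries the pool was split as follows. WT 8 week sham had 748 cells (51.3%) with Arg1 alone and 82 with both, and WT P1 sham had 0 with Arg1 alone. WT P1 MI replicate 1 had 27 cells (22.7%) with Arg1 alone, 0 with Nos2 or Acod1 alone and 2 with both. Replicate 2 had 56 (4.54%), 195 (15.8%) and 32 (2.60%), so the 2 replicates of this group differed in which pattern was more common. Neutrophil markers of these 3 sets of replicate 2 read 5736, 62080 and 34300 CPM, against 12220 in cells with none. Mertk KO P1 sham had 58 (11.0%), 58 (11.0%) and 33 (6.25%).

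**Figure D4:**
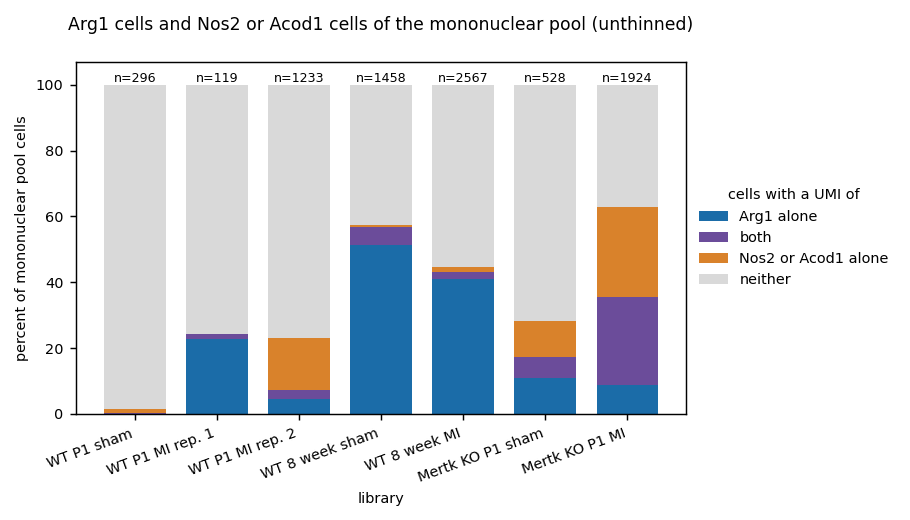
Percent of mononuclear pool cells (vertical axis) with UMIs of Arg1 alone, of Nos2 or Acod1 alone, of both, or of neither, for each of the 7 libraries. Arg1 alone made up 41.1% in WT 8 week MI, against 8.78% in Mertk KO P1 MI, where cells with both made up 26.8%.

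Pairs of transcripts shared cells in the knockout infarct. Of the 684 Arg1 cells of its pool, 200 (29.2%) also held Nos2, against 13.2% of cells without Arg1, and 488 (71.4%) held Acod1, against 39.5%. Of the 363 Nos2 cells, 301 (82.9%) held Acod1, against 43.4% of cells without Nos2. Ass1 was found in 92 of the 363 Nos2 cells (25.3% against 13.1%), Slc7a2 in 31 (8.54% against 0.897%), and Odc1 in 274 of the 684 Arg1 cells (40.1% against 27.98%). In all 6 pairs detection of the first gene went with more detection of the second. Depth was not matched in these counts, and after thinning 38.3% of the Arg1 cells held Acod1, 13.8% held Nos2, and 55.1% of the Nos2 cells held Acod1. No share of cells without the first gene stands beside these thinned values. The part of neutrophil RNA in these pairs was not tested. Among all thinned monocyte-like cells 470 were Acod1-positive and 1218 negative, and 125 were Nos2-positive and 1563 negative.

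The same pairs were counted in the other libraries with enough positive cells. In Mertk KO P1 sham, 22 of 40 Nos2 cells held Acod1 (55.0% against 10.5%), 18 held Ass1 (45.0% against 7.58%), and 16 of 91 Arg1 cells held Nos2 (17.6% against 5.49%). In WT P1 MI replicate 2, 40 of 52 Nos2 cells held Acod1 (76.9% against 14.8%), and 32 of 88 Arg1 cells held Acod1 (36.4% against 16.0%). The direction in both was that of the knockout infarct. Cells with all of Arg1, Nos2 and Acod1 numbered 198 in the knockout infarct, 12 in the knockout sham library and 8 in WT P1 MI replicate 2. Neutrophil-like Nos2 cells held Acod1 in 758 of 872 cases in Mertk KO P1 MI (86.9% against 78.3%) and in 69 of 85 in WT P1 MI replicate 2 (81.2% against 54.6%).

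In the adult infarct Arg1 shared cells more with Slc7a2 than with Acod1, set against the cells without Arg1. Of 1096 Arg1-positive macrophage-like cells 137 held Slc7a2 (12.5%, against 0.692% of cells without Arg1), 153 held Odc1 (14.0% against 8.37%) and 51 held Acod1 (4.65% against 2.77%). In the pool of WT 8 week sham 547 of 830 Arg1 cells held Slc7a2 (65.9% against 3.98%), most of them cluster 17 by the counts above.

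The 1108 Arg1 cells in the pool of WT 8 week MI were set beside the 1040 Nos2 or Acod1 cells in the pool of Mertk KO P1 MI. These are 1 library each, differing in age and genotype, and the cells were chosen on the readout, so the values carry no test. Genes with the highest ratios toward the Arg1 cells included Spp1 (osteopontin, a matrix protein of wound macrophages) at 17270 against 302 CPM, Mmp12 (macrophage elastase) at 375 against 5.88, Ccl7 (a monocyte chemokine) at 1939 against 44.2, Gpnmb (a lysosomal glycoprotein of phagocytes) at 328 against 9.29 and Cd63 (a lysosomal tetraspanin) at 1839 against 55.8. Chil3 read 717 against 14.98, Fcna 260 against 6.54, Syngr1 165.5 against 1.42 and Ppbp 114.5 against 1.14.

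Toward the Nos2 or Acod1 cells the genes were mostly stefins, a family of cysteine protease inhibitors, and neutrophil transcripts. Stfa1 read 0.323 against 2255 CPM, Cstdc5 1.29 against 2753, Csta2 8.39 against 1291, Cstdc4 15.5 against 1815 and Stfa2l1 4.84 against 743. These stefin genes are near-identical copies, and how reads were split among them is uncertain. Lcn2 (a siderophore-binding granule protein) read 13.9 against 1973. Of 12 neutrophil markers with at least 30 UMIs 10 were at least 2-fold lower in the Arg1 cells, and of 13 macrophage markers 9 were at least 2-fold higher, against 18.5% and 18.1% of 9669 genes. Pool cells with none of the 3 transcripts differed in the same direction: those of WT 8 week MI, set beside those of the knockout MI library, held 1062 and 12310 CPM of neutrophil markers, 31790 and 11950 of macrophage markers, 9408 and 309 of Spp1 and 588.5 and 34.0 of Gpnmb. Among all 24 genes named by this ranking, 21 were named again when 2 UMIs were required, 20 without doublet removal and 18 over all kept cells.

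**Figure D5:**
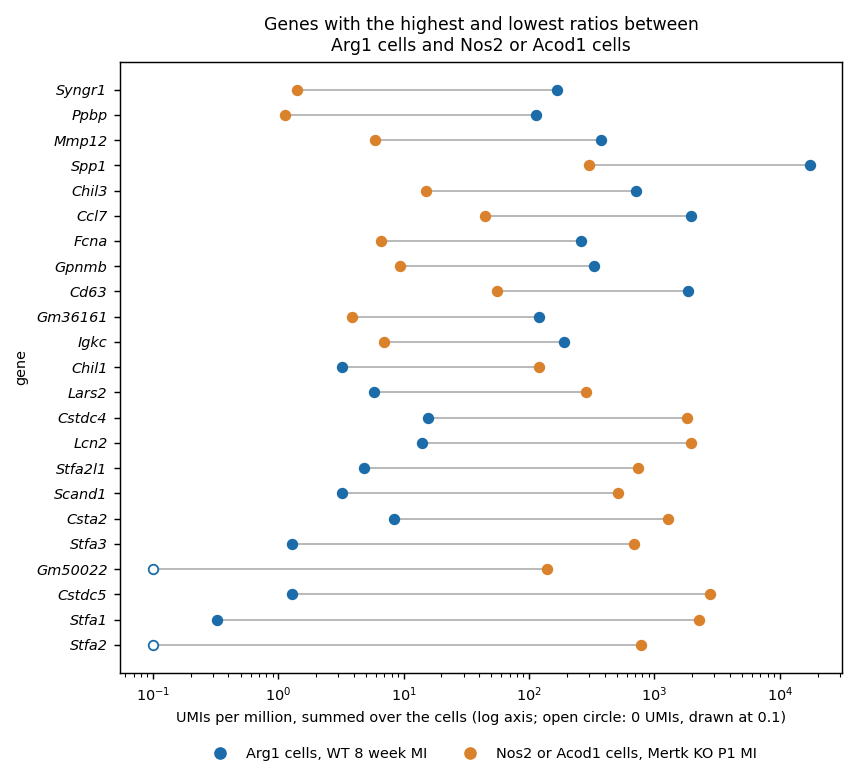
CPM (log axis) of genes with the highest and lowest ratios between Arg1 cells of WT 8 week MI (blue) and Nos2 or Acod1 cells of Mertk KO P1 MI (orange), both within the mononuclear pool. Spp1 lay at 17270 against 302 and Stfa1 at 0.323 against 2255, and open circles mark 0 UMIs.

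For the 8 genes the same cells read 3290 against 831 CPM of Arg1, 0.323 against 127 of Nos2 and 23.2 against 494 of Acod1, by which they were chosen. Slc7a2 read 70.7 against 10.3, Ass1 56.5 against 33.1 and Asl 50.3 against 42.2, all higher in the Arg1 cells. Arg2 read 19.0 against 76.0 and Odc1 60.3 against 83.8, both lower there. The Nos2 or Acod1 cells of the knockout infarct thus held Arg1 transcript too, at a lower level than the adult Arg1 cells.

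Genes of the surrounding pathways were counted in these cells by a ratio of at least 2, and the examples below were chosen after their values were seen. Over all 9669 genes 18.1% were higher and 18.5% lower in the Arg1 cells by that ratio. These counts compare 2 libraries, and counts within a library, given further below, differ from them. Alternative activation genes leaned toward the Arg1 cells, with 6 higher and 1 lower of 9. Ccl24 read 272 against 17.2 CPM and Mrc1 (the mannose receptor) 103.9 against 40.1, while Klf4 (a transcription factor) read 107 against 342. Of 16 itaconate and citrate genes 7 were higher and 0 lower in the Arg1 cells. They included Idh1 (cytosolic isocitrate dehydrogenase, 164 against 39.9 CPM), Sdhd (a subunit of succinate dehydrogenase, the enzyme that itaconate inhibits, 142 against 27.5) and Acly (ATP citrate lyase, 162 against 64.4).

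Inflammatory genes leaned the other way, with 1 higher and 5 lower of 17. Il1b (interleukin-1 beta) read 841 CPM in the Arg1 cells against 5762 and Irf1 17.1 against 91.2, whereas Il6 (interleukin-6) read 63.2 against 6.73. Hypoxia and glycolysis genes were 0 higher and 4 lower of 11, among them Slc2a1 at 59.0 against 141. Arginine genes were 2 higher and 0 lower of 10, polyamine genes 2 higher and 1 lower of 12, nitric oxide cofactor genes 1 and 1 of 6, and Nrf2 targets 2 and 1 of 8. For these 4 lists the counts were near the shares over all genes or rest on 1 or 2 genes.

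Positive cells were also set beside negative cells of the same class and library, with cells chosen after thinning so that depth does not pick them. In macrophage-like cells of WT 8 week MI, 794 Arg1-positive cells (median 2782 UMIs) and 1123 negative cells (2435) differed most in Prg4 (lubricin, 106.9 against 1.64 CPM), Serpinb2 (a plasminogen activator inhibitor, 129.9 against 3.29), Saa3 (serum amyloid A, 2595 against 125), Slpi (a protease inhibitor, 3514 against 214), Ccl24 (an eosinophil chemokine, 315 against 16.1) and Il1a (interleukin-1 alpha, 296 against 15.4). Slc7a2 read 84.2 against 5.26. Of 10 hypoxia and glycolysis genes 8 were at least 2-fold higher in the Arg1-positive cells, and of 16 inflammatory genes 7, against 4.42% of 7932 genes. Of 9 alternative activation genes 1 was higher by that ratio, of 16 itaconate and citrate genes 1, and of 8 Nrf2 targets 3. The nitric oxide list had 1 of 5, the arginine list 0 of 8 and the polyamine list 0 of 12.

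In monocyte-like cells of Mertk KO P1 MI, 456 Arg1-positive cells (median 9052 UMIs) were compared with 1232 negative ones (7370). Genes with the highest ratios included Ptges (prostaglandin E synthase, 145 against 17.7 CPM), Ccl5 (a T cell chemokine, 1078 against 237.5), Marco (a scavenger receptor, 1762 against 485) and Hmox1 (heme oxygenase, 716 against 244). Nos2 read 170 against 52.8, Acod1 465 against 278, Ass1 55.6 against 17.9 and Slc7a2 22.2 against 0.792, all higher in the Arg1-positive cells. Of 12 macrophage markers 4 were at least 2-fold higher in them and of 11 monocyte markers 5 were at least 2-fold lower, against 2.76% and 1.74% of 9447 genes. Nos2-positive monocyte-like cells (125 against 1563) differed most in Inhba (a subunit of activin, 366 against 27.8) and Il1a (541.5 against 64.5). Of 12 macrophage markers 0 were at least 2-fold higher and 5 lower in the Nos2-positive cells, against 3.03% and 6.425% of genes. In Acod1-positive cells 0 were higher and 0 lower. Of 17 inflammatory genes 1, 5 and 6 were higher in Arg1-, Nos2- and Acod1-positive cells, and of 10 hypoxia and glycolysis genes 2, 5 and 0. Inhba and Ptges were among the first 10 genes for Arg1-, for Nos2- and for Acod1-positive monocyte-like cells alike. Of 12 neutrophil markers 3, 2 and 4 were at least 2-fold higher in these 3 sets of positive cells, against 2.76%, 3.03% and 1.22% of 9447 genes. Retnlg, 1 of these markers, read 2312 against 864 CPM in the Acod1-positive cells. The part of neutrophil RNA was not tested.

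Neutrophil-like cells of the same library were split by Nos2. Of 7248 genes 0.524% were at least 2-fold higher and 4.99% at least 2-fold lower in the positive cells, 7 of 10 macrophage markers among the latter. Of 517 positive and 2210 negative cells, the highest ratio was that of Csf3 (granulocyte colony-stimulating factor, 101.3 against 51.5), followed by genes such as Pfkfb3 (a glycolytic regulator, 153 against 79.2) and Il1a (276 against 144). Of 10 hypoxia and glycolysis genes 1 was at least 2-fold higher. Acod1 read 1225 against 1033 CPM. Acod1-positive neutrophil-like cells (1886 against 841) differed most in Il1a (222 against 56.5). In cluster 17 of WT 8 week sham, 606 Arg1-positive cells held Slc7a2 at 403 against 130.5 in 235 negative cells and Acod1 at 14.4 against 30.7.

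Whether infarction moved the 8 genes at P1 in WT hearts was tested, since this comparison did not choose them. In macrophage-like cells Arg1, Arg2, Nos2 and Acod1 rose, 4 of the 8, and Slc7a2, Odc1, Ass1 and Asl did not pass the test, against 1.79% of 10428 genes called. A call needed a fold of at least 2 and, by the quasi-likelihood test of edgeR, a Benjamini-Hochberg adjusted p under 0.05 over all genes, and all 8 genes passed the filter on low counts. On the log2 scale Arg1 rose by 3.83 ± 0.69 (SE, edgeR adjusted p = 5.084e-06) and was higher than sham in 2 of 2 MI libraries. Arg2 rose by 2.64 ± 0.59 (edgeR adjusted p = 0.0008925), from 4.24 CPM in sham to 5.67 and 33.0.

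The calls of Arg2, Acod1 and Nos2 rest on WT P1 MI replicate 2. Acod1 rose by 4.14 ± 0.61 on the log2 scale (edgeR adjusted p = 5.04e-09), with 0 UMIs in the 74 macrophage-like cells of replicate 1. Nos2 (edgeR adjusted p = 0.04976) was at 0 in sham and in replicate 1, and in replicate 2 it was at least 5.66-fold higher than the limit that 0 UMIs in sham allow. The log2 fold changes that were not called were 1.46 ± 0.60 for Slc7a2, 0.16 ± 0.44 for Odc1, 0.84 ± 0.56 for Ass1 and 0.00 ± 0.42 for Asl. In this class edgeR replaced each gene's own spread by a value shared over genes (infinite prior degrees of freedom). Disagreement of the 2 replicates on a gene therefore did not raise its p-value. The same held in fibroblast-like cells, while the pool had 12.55 prior degrees of freedom beside the 1 residual. With 1 residual degree of freedom the calls were fragile: DESeq2 called 0 of the 8 and size factors of the RLE kind left Arg1 at an edgeR adjusted p of 0.0666. Replicate 2 was processed with Cell Ranger 6.1.0 and sham and replicate 1 with 4.0.0, and within 4.0.0 the log2 difference was 4.39 for Arg1 and 0.46 for Arg2. In replicate 2 the summed neutrophil markers of macrophage-like cells were 15890 CPM against 110 in sham and 49.6 in replicate 1, and their part in the Arg2, Nos2 and Acod1 values was not tested.

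In the mononuclear pool none of the 8 genes was called for the same comparison by edgeR, where 0.0326% of 12266 genes were, and 5 of the 8 had an unadjusted p under 0.05, while DESeq2 called 0. Arg1 had a log2 fold change of 6.26 ± 1.38 (edgeR adjusted p = 0.263), with 7.26 CPM in sham and 990 and 66.1 in the MI libraries. Slc7a2 had 3.66 ± 1.39 (edgeR adjusted p = 0.789), with 3.96 in sham and 99.7 and 3.29 in MI. In replicate 1, 15 cells of cluster 17 held 1080 Arg1 and 110 Slc7a2 UMIs, at 3165 and 322 CPM. The 990 and 99.7 of the pool therefore rest mostly on these cells. The MI libraries were on the same side of sham for Arg1 and on both sides for Slc7a2. In fibroblast-like cells 1.11% of 14209 genes were called, and of the 8 genes Nos2 (edgeR adjusted p = 0.01755), which rests on the 6 cells of replicate 2 described above and was not called without doublet removal (edgeR adjusted p = 0.966).

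The other genes of the pathways moved little with infarction in WT P1 macrophage-like cells. Of 11 alternative activation genes tested Retnla (a secreted marker of alternative activation) rose by 7.51 ± 0.73 on the log2 scale (edgeR adjusted p = 6.773e-21) and Egr2 (a transcription factor of the same state) by 1.63 ± 0.44 (edgeR adjusted p = 0.01582). Retnla read 1.70 CPM in sham, 634 in replicate 1 and 0 in replicate 2, so its call rests on replicate 1. Of 10 hypoxia and glycolysis genes Hilpda (a lipid droplet protein) rose by 1.95 ± 0.54 (edgeR adjusted p = 0.02198). The lists of arginine, polyamine, nitric oxide cofactor, itaconate and citrate, Nrf2 and inflammatory genes had 0 of 72 called by edgeR, 5 at an unadjusted p under 0.05 and 0 by DESeq2. In the pool, all 8 lists together had 0 of 98 called by edgeR, 11 at an unadjusted p under 0.05 and 1 by DESeq2.

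In fibroblast-like cells 4 of 17 inflammatory genes rose after infarction, with a list median of 1.21 on the log2 scale against 0.01 over all genes tested, while DESeq2 called 0. They were Il1b (2.34, edgeR adjusted p = 0.0039), Cxcl2 (1.81, edgeR adjusted p = 0.01273), Tnfaip3 (1.58, edgeR adjusted p = 0.01787) and Cxcl10 (1.46, edgeR adjusted p = 0.00688). Il1b read 1.38 CPM in sham and 0.953 and 9.76 in the MI libraries, so its call rests on replicate 2. Neutrophil markers in these cells read 15.3, 6.91 and 263 CPM in the same libraries, with S100a9 in 9.01%, 4.89% and 59.4% of cells, and their part was not tested. Ddah1, which breaks down methylated arginines that inhibit nitric oxide synthases, rose by 1.52 ± 0.40 (edgeR adjusted p = 0.01633), from 23.9 to 40.7 and 88.7 CPM, as 1 of 14 arginine genes tested. The other 6 lists had 0 of 70 called by edgeR, 6 at an unadjusted p under 0.05 and 0 by DESeq2.

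Between ages, the pool of WT 8 week MI was compared with that of WT P1 MI, where 6.21% of 12266 genes were called. For the 8 genes this comparison is a description. The pool read 1648 CPM of Arg1 in WT 8 week MI against 990 and 66.1 in the P1 libraries, 51.9 of Ass1 against 2.15 and 18.2, and 59.2 of Asl against 30.1 and 30.7, higher than both in each case. Acod1 read 18.9 against 2.87 and 63.8, Slc7a2 37.2 against 99.7 and 3.29, and Arg2 16.2 against 24.4 and 56.8, so Acod1 and Slc7a2 lay between the P1 libraries and Arg2 below both. The 990 of Arg1 and 99.7 of Slc7a2 in replicate 1 rest mostly on its 15 cells of cluster 17. Odc1 read 55.9 against 94.0 and 69.4, and Nos2 0.162 against 0 and 11.98.

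Other genes of these pathways were called in that comparison in 6 of 8 lists, against 6.21% of all genes tested. Pool make-up differed, with 2542 of 2567 cells macrophage-like in WT 8 week MI and 74 of 119 and 616 of 1233 in the P1 replicates. Neutrophil markers of these pools read 1297 CPM against 446 and 24530. The part of this make-up in the calls was not tested. Srm (spermidine synthase) fell by 1.84 on the log2 scale (edgeR adjusted p = 0.04295), and Dohh, which completes the hypusine modification that uses spermidine, rose by 1.41 (edgeR adjusted p = 0.04341), 2 of 12 polyamine genes. Gch1, which starts the synthesis of the nitric oxide synthase cofactor tetrahydrobiopterin, fell by 1.73 (edgeR adjusted p = 0.03249), 1 of 8 tested in its list, and read 70.3, 55.6 and 14.9 CPM in the P1 replicates and the adult library. Prdx1 (a peroxidase, 2.82, edgeR adjusted p = 0.01318) and Hmox1 (2.27, edgeR adjusted p = 0.02245) rose, 2 of 9 Nrf2 targets. Bnip3 and Ndrg1, hypoxia-responsive genes, rose by 2.13 and 1.78 (edgeR adjusted p = 0.008401 and 0.0309), 2 of 11, Myc by 2.08 (edgeR adjusted p = 0.02464), 1 of 12 alternative activation genes, and Irf1 (an interferon-responsive transcription factor) fell by 1.71 (edgeR adjusted p = 0.042), 1 of 17 inflammatory genes. The arginine and the itaconate and citrate lists had 0 of 29 called by edgeR, 6 at an unadjusted p under 0.05 and 0 by DESeq2.

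Between genotypes, the pool of Mertk KO P1 MI was compared with that of WT P1 MI, where 0.872% of 12266 genes were called. The values of the 8 genes are again a description. Nos2 read 80.4 CPM in the library labelled Mertk KO against 0 and 11.98 in the WT replicates, Acod1 313 against 2.87 and 63.8, Arg2 61.7 against 24.4 and 56.8, Ass1 27.7 against 2.15 and 18.2, and Asl 45.7 against 30.1 and 30.7, above both in each case. Arg1 read 624 against 990 and 66.1, Slc7a2 7.03 against 99.7 and 3.29, and Odc1 81.6 against 94.0 and 69.4, all between the WT replicates. Again the 990 and 99.7 rest mostly on 15 cells of cluster 17. The summed neutrophil markers of monocyte-like cells were 20820 CPM in the Mertk KO P1 MI library against 1525 and 35300 in the WT replicates.

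Hypoxia and glycolysis genes were the list with most calls in that comparison. Of 11 tested 4 rose, with a list median of 1.70 on the log2 scale against -0.03 over all genes tested. Egln3, an oxygen-sensing prolyl hydroxylase, rose by 3.33 ± 0.44 (edgeR adjusted p = 0.005087) and read 53.97 CPM against 5.02 and 7.12 in the WT replicates. The pools differed in make-up, with 1734 of 1924 cells monocyte-like in Mertk KO P1 MI and 30 of 119 and 584 of 1233 in the WT replicates, and with macrophage markers at 10840 against 25060 and 19210 CPM, and the part of this was not tested. Slc2a1 (a glucose transporter), Ndrg1 and Bnip3 rose by 2.05, 2.03 and 1.95 (edgeR adjusted p = 0.03658, 0.04162 and 0.03736). Among 17 inflammatory genes tested 2 were called higher. Cxcl9, an interferon-gamma-induced chemokine and 1 of them, rose by 4.57 ± 0.71 (edgeR adjusted p = 0.009107). Cxcl9 read 6.37 CPM in Mertk KO P1 MI and 40.8 in Mertk KO P1 sham. The other 6 lists had 0 of 70 called by edgeR, 14 at an unadjusted p under 0.05 and 1 by DESeq2.

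Both comparisons share the WT P1 MI libraries, which supply the spread of every test, and each lone library was assumed to vary as they do. The genotype comparison called 7 genes when cells needed 1000 UMIs and 450 without doublet removal.

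Genes whose levels ran most like Arg1, Nos2 and Acod1 were taken over 32 sums of a cell class in a library, which share libraries and depth, as a description. Nearest to Arg1 were Nxpe5 (Pearson r = 0.883), Ftl1-ps1 (0.856), F7 (0.853), Ms4a6d (0.849) and Ctsb (0.846). Nearest to Nos2 were Upp1 (0.865), Gbp2 (0.704), Chmp2a (0.697), Tnip1 (0.672) and Cd38 (0.663). Nearest to Acod1 were Fpr1 (0.973), Il1f9 (0.965), Asprv1 (0.963), Wfdc21 (0.952) and S100a9 (0.950). Among the 8 genes, Acod1 and Arg2 had r = 0.882, and Arg1 and Nos2 r = 0.0065.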

How the data were processed

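Libraries were made with the v3 or v3.1 kit of 10x Genomics for 3′ ends and read on a NovaSeq, per the labels' protocols. The deposited values are raw UMI counts per gene and barcode from filtered matrices, made by Cell Ranger on GRCm38 (mm10), 4.0.0 in 5 libraries and 6.1.0 in 2, per the file headers. A barcode was kept from 500 UMIs and 300 genes upward, unless mitochondrial UMIs exceeded 15%. The highest Scrublet scores, 0.8% of barcodes per 1000 barcodes, were removed as doublets (29, 9, 1133, 2146, 81, 66 and 397), which left 1561, 764, 9002, 13166, 3049, 2545 and 6210 cells. Scrublet's automatic threshold would have removed 7, 3, 216, 0, 2, 25 and 1, so it was not used. Cells were clustered together with scanpy 1.11.5 (2000 variable genes, 30 components, 15 neighbours, Leiden resolution 1) and clusters named from the marker lists. No authors' cell annotation was used here.

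UMIs were summed over the cells of a class in a library and given as CPM, with exact Poisson 95% intervals; shares of cells have exact binomial intervals, and 0 counts are read as allowing 3. These cover counting error only. Shares were also taken after thinning each cell to 1500 UMIs, leaving out shallower cells. Tests used edgeR 4.0.16 (glmQLFit and glmQLFTest, TMM, filterByExpr, R 4.3.3) on summed counts of all 7 libraries, with Benjamini-Hochberg adjustment, and DESeq2 1.42.0 as an alternative; the 2 WT P1 MI libraries leave 1 residual degree of freedom. The test script was checked on simulated data. Ratios between sets of cells add 0.5 counts. Genes named beside the 8 are the 12 highest and 12 lowest ratios between the 2 sets of cells (10 highest within a library), with at least 100 CPM in the higher set and 30 UMIs in all, the genes of the pathway lists called in a comparison, and the 5 genes most alike by Pearson r of log2(CPM + 1). From each such ranking the text gives examples. The 8 genes, the pathway lists and the markers were chosen with earlier results of these data known. Promoter letters come from RefSeq (GRCm38.p6). The other alternatives were other normalization, no filter on low counts, no doublet removal, Leiden resolution 0.5, a minimum of 1000 UMIs, other thinning depths, at least 2 UMIs per positive cell and leaving out each WT P1 MI library. Some genes that met these rules are not reported here.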

Additional observations from a re-analysis of the deposited data

Results flagged for a closer look

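The difference between MI and sham ran in opposite directions in WT P1 and Mertk KO P1 for Arg1 in macrophage-like cells. WT P1 sham stood at 9.33 CPM and the 2 WT P1 MI replicates at 191.4 and 63.26, both higher, whereas Mertk KO P1 sham stood at 387.2 and Mertk KO P1 MI at 145.5, lower. This difference between the genotypes was not tested. The knockout has 1 library per condition, and the classes hold 146 and 189 cells there. In the sham library 26 cells of cluster 3 held 333 of the 561 Arg1 UMIs, and the main cluster, 14, read 218 against 120 CPM in MI.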

How the results depend on the processing

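No paired analysis was possible because no 2 groups share 2 replicate numbers. Counts of called genes depended on the processing, with 10 of 30 alternatives within 1.5 times the reported count, and the cause was not tested. In macrophage-like cells the 187 genes called between WT P1 MI and sham were 9 with RLE size factors, 64 without doublet removal, 105 at Leiden resolution 0.5 and 17 with DESeq2. In the pool the 4 were 0 with RLE, 154 without a filter, 115 without doublet removal, 126 at resolution 0.5 and 27 with DESeq2. In fibroblast-like cells the 158 were 4 without doublet removal and 16 with DESeq2. For WT 8 week MI against WT P1 MI the 762 were 314 with RLE, 1331 without a filter, 1229 without doublet removal and 1519 at resolution 0.5. Between the P1 MI libraries of both genotypes the 107 were 24 with RLE, 395 without a filter, 450 without doublet removal, 314 at resolution 0.5 and 7 at a minimum of 1000 UMIs.

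Of 128 alternative log2 fold changes of the 8 genes between WT P1 MI and sham, 84 were counted as unchanged. For a refit this meant the same direction and side of the threshold, and without 1 replicate a value within the reported SE. Refits reversed 4 values, all of Asl near 0: in macrophage-like cells (-0.004 reported) 0.003419 without a filter and 0.002358 without doublet removal, in the pool (-0.03 reported) 0.004131 and 0.05327. Without 1 replicate, changes of sign in genes not called are outside that count and are among the values below. Without replicate 1 and without replicate 2 in turn, the macrophage-like log2 fold changes were 2.99 and 4.39 for Arg1, 3.18 and 0.46 for Arg2, -0.18 and 2.83 for Slc7a2, and 1.22 and -1.87 for Ass1, and those of the pool 3.45 and 7.16 for Arg1, 2.69 and 1.28 for Arg2, 4.40 and -0.27 for Acod1, -0.00 and 4.72 for Slc7a2, and 1.59 and -1.68 for Ass1. Macrophage-like Acod1 was 4.85 without replicate 1 and has no value without replicate 2, where 0 UMIs remain. These have no test, since no residual degree of freedom is left. The macrophage-like call of Arg1 was lost with RLE (adjusted p = 0.0666) and DESeq2 (0.0979), that of Acod1 also without doublet removal (log2 2.07, adjusted p = 0.737), and that of Arg2 also without doublet removal (log2 0.31) and at resolution 0.5 (adjusted p = 0.1858). In the pool Arg1, not called as reported, was called without a filter (8.7e-09), without doublet removal (1.99e-08) and at resolution 0.5 (1.053e-04).

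Among levels, Arg1 of macrophage-like cells in WT 8 week MI (1647 CPM) was 1715 without doublet removal and 1741 at a minimum of 1000 UMIs. In Mertk KO P1 MI, Arg1 of monocyte-like cells (686.1) was 656.4 without doublet removal and 670.2 at resolution 0.5, Nos2 (89.15) was 58.95 and Acod1 (335.7) was 247.4 without doublet removal. At a minimum of 1000 UMIs the main monocyte-like cluster of that library was held to be mixed and left the class, and Arg1, Nos2 and Acod1 of the cells still called monocyte-like were 0, 0 and 33.36. Acod1 of neutrophil-like cells (1073) was 1113 without doublet removal, 1106 at resolution 0.5 and 1100 at a minimum of 1000 UMIs, and over all deposited barcodes Acod1 was 406.5 against 395.6.

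Shares followed the thinning depth. At 1000 UMIs, at 3000 UMIs and unthinned with at least 2 UMIs, the share of Arg1 cells in macrophage-like cells of WT 8 week MI (41.42%) was 36.19%, 59.0% and 32.22%. In Mertk KO P1 MI the shares in monocyte-like cells were 21.78%, 32.17% and 31.83% for Arg1 (27.01%), 5.533%, 10.89% and 11.88% for Nos2 (7.405%) and 21.43%, 39.46% and 40.48% for Acod1 (27.84%), and in neutrophil-like cells 12.61%, 29.46% and 13.51% for Nos2 (18.96%) and 56.39%, 83.98% and 64.39% for Acod1 (69.16%). Without doublet removal the monocyte-like shares of Nos2 and Acod1 were 5.443% and 22.61%. Co-detection in Mertk KO P1 MI after thinning and without doublet removal was 38.28% and 66.31% for Acod1 in Arg1 cells of the pool (71.35%), 13.76% and 24.55% for Nos2 in Arg1 cells (29.24%), 55.12% and 74.77% for Acod1 in Nos2 cells (82.92%), and after thinning 72.92% in neutrophil-like cells (86.93%). Depth limits WT 8 week MI (median 2142 UMIs per cell) and the small classes of WT P1 MI replicate 1.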
